A study of Mus musculus with 12 samples.

Results

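Ventricles of mice that expressed expanded CUG repeat RNA in cardiomyocytes were compared with those of control mice, 3 mice against 3, across all genes. These are 6 of the 12 libraries of the series. They were chosen by the chamber and genotype in the sample labels and not by any measured value. The CUG960 +dox mice (V119, V120 and V123) had the labelled genotype TREDT960I(H)/MHCrtTA(hemi). TREDT960I is a tetracycline-responsive transgene with 960 CTG repeats, interrupted by other sequence, within exons of human DMPK, and MHCrtTA is a transgene in which the α-myosin heavy chain promoter drives the reverse tetracycline transactivator in cardiomyocytes. The MHCrtTA +dox controls (V327, V333 and V334) had the labelled genotype MHCrtTA(hemi) and no repeat transgene. All 6 mice were FvB females of 10 weeks that were given dox from postnatal day 1, so dox and the transactivator were common to both groups. The counts are of mouse genes, and RNA of the transgene was not analysed here. Each library came from a different mouse, and the labels name no batch or date. The mouse numbers of the genotypes lie in separate ranges, so a batch that follows genotype cannot be told apart from it. By the paper's account the genotypes also came from separate matings, with controls bred from MHCrtTA and wild type FVB mice. Other differences between the lines therefore cannot be told apart from the repeat RNA.

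The ventricular libraries held 133480610, 129140369 and 130664289 counts in V327, V333 and V334, and 160676189, 152709789 and 140987828 counts in V119, V120 and V123. Every CUG960 library was therefore deeper than every control library. Mitochondrially encoded transcripts took 20.5%, 19.6% and 20.5% of the counts in controls and 18.4%, 15.3% and 17.3% in CUG960 mice. An exact two-sided permutation test gave P = 0.1, the smallest value that 3 mice against 3 can give. The first principal component of log2 CPM held 41.1% of the variance and separated the genotypes, and the second held 18.8%. CPM are counts scaled to a common library size with TMM factors, and the values of each gene are given in the mouse order V327, V333, V334 for controls and V119, V120, V123 for CUG960 mice.

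The labelled chamber was checked against marker genes. Myl2, the ventricular regulatory light chain, had 7952, 9121 and 7359 CPM in controls and 8137, 8307 and 8719 CPM in CUG960 mice. Of genes that mark atrial cardiomyocytes, Myl7 had 6.65, 4.06 and 16.6 CPM of the unscaled library total in control ventricles and 0.174, 0.275 and 49.6 in CUG960 ventricles, beside 2950 to 3930 in the 6 atrial libraries. Sln had 2.40, 2.44 and 6.72 in control ventricles and 0.193, 0.308 and 16.5 in CUG960 ventricles. Among the ventricular libraries, V123 was thus highest and V119 and V120 were lowest in Myl7, Sln and Myl4. Other atrial markers were ordered differently, with Nppa and Mybphl highest in V120 and Bmp10 highest in V334. For Mybphl, Nppa and Bmp10, the called genes among these markers, the results are also given without V123.

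Myotonic dystrophy type 1 arises from an expanded CTG repeat in the DMPK gene, whose RNA is retained in nuclear foci with Muscleblind-like proteins and disturbs alternative splicing in heart and skeletal muscle. Ventricular muscle contracts when calcium, released through the ryanodine receptor, lets the myosin of the thick filament act on the actin of the thin filament. The energy comes mainly from fatty acids oxidized in mitochondria and is carried to the filaments by creatine kinases.

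Of 16909 genes tested with edgeR, 804 (4.75%) were called, which required both a change of 1.5-fold or more and a Benjamini-Hochberg adjusted P below 0.05. Of these, 507 (3.0%) were higher in CUG960 ventricles and 297 (1.76%) were lower. A mean of at least 1 CPM was reached by 382 of the higher and 235 of the lower genes. In all, 4342 genes had an unadjusted P value under 0.05, 2280 higher and 2062 lower. Without the fold change limit, 1680 genes had an adjusted P below 0.05, 969 higher and 711 lower. The groups did not overlap for 31.1% of the genes tested, 16.3% with all CUG960 values higher and 14.9% with all lower. For 803 of the 804 called genes they did not overlap, the exception being Mybphl, so every other gene said to have risen or fallen was higher or lower in each CUG960 mouse than in each control. The gene lists described next were chosen with earlier results of these data known, so a share of called members above that of all genes describes the list and is no evidence about it. These are bulk tissue libraries, in which fewer cells of a type and less RNA per cell cannot be told apart. Without 1 mouse, between 558 (without V120) and 737 (without V333) genes were called, and 488 to 590 of the 804 were still called in the same direction.

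The mouse Dmpk gene had 469, 521 and 504 CPM in controls and 563, 654 and 521 CPM in CUG960 mice (log2 fold change 0.22 ± 0.10, adjusted P = 0.20) and was not called. Whether reads of the human DMPK transgene were counted in it was not tested. The Muscleblind-like genes that bind CUG repeat RNA were not called either, with log2 fold changes of 0.09 for Mbnl1 and 0.14 for Mbnl2. Celf1, a splicing regulator whose protein is known to be raised in this disease, had 112, 101 and 108 CPM in controls and 130.5, 123.1 and 132 CPM in CUG960 mice (log2 fold change 0.26, adjusted P = 0.0497). Its CUG960 values lay just above the controls, below the fold change limit. For CELF1 protein, the paper reported no significant change in CUG960 +dox mice and proposed higher atrial levels in some of them. The splicing regulator list also counts Dmpk, which is not a splicing regulator. Among all 57 members tested of this list, 0 were called higher and 1 lower (1.75%, beside 4.75% of all genes tested). Without the fold change limit 3 were higher and 4 lower at an adjusted P under 0.05, beside 969 and 711 of all 16909 genes. DESeq2 called 0 members of the list in either direction. The gene called lower was Esrp2, an epithelial splicing regulator, at 0.266, 0.247 and 0.131 CPM in controls and 0.0713, 0.0627 and 0.0833 CPM in CUG960 mice. Esrp2 was not called without V327, V333, V119, V120 or V123 (adjusted P up to 0.16).

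**Figure D1:**
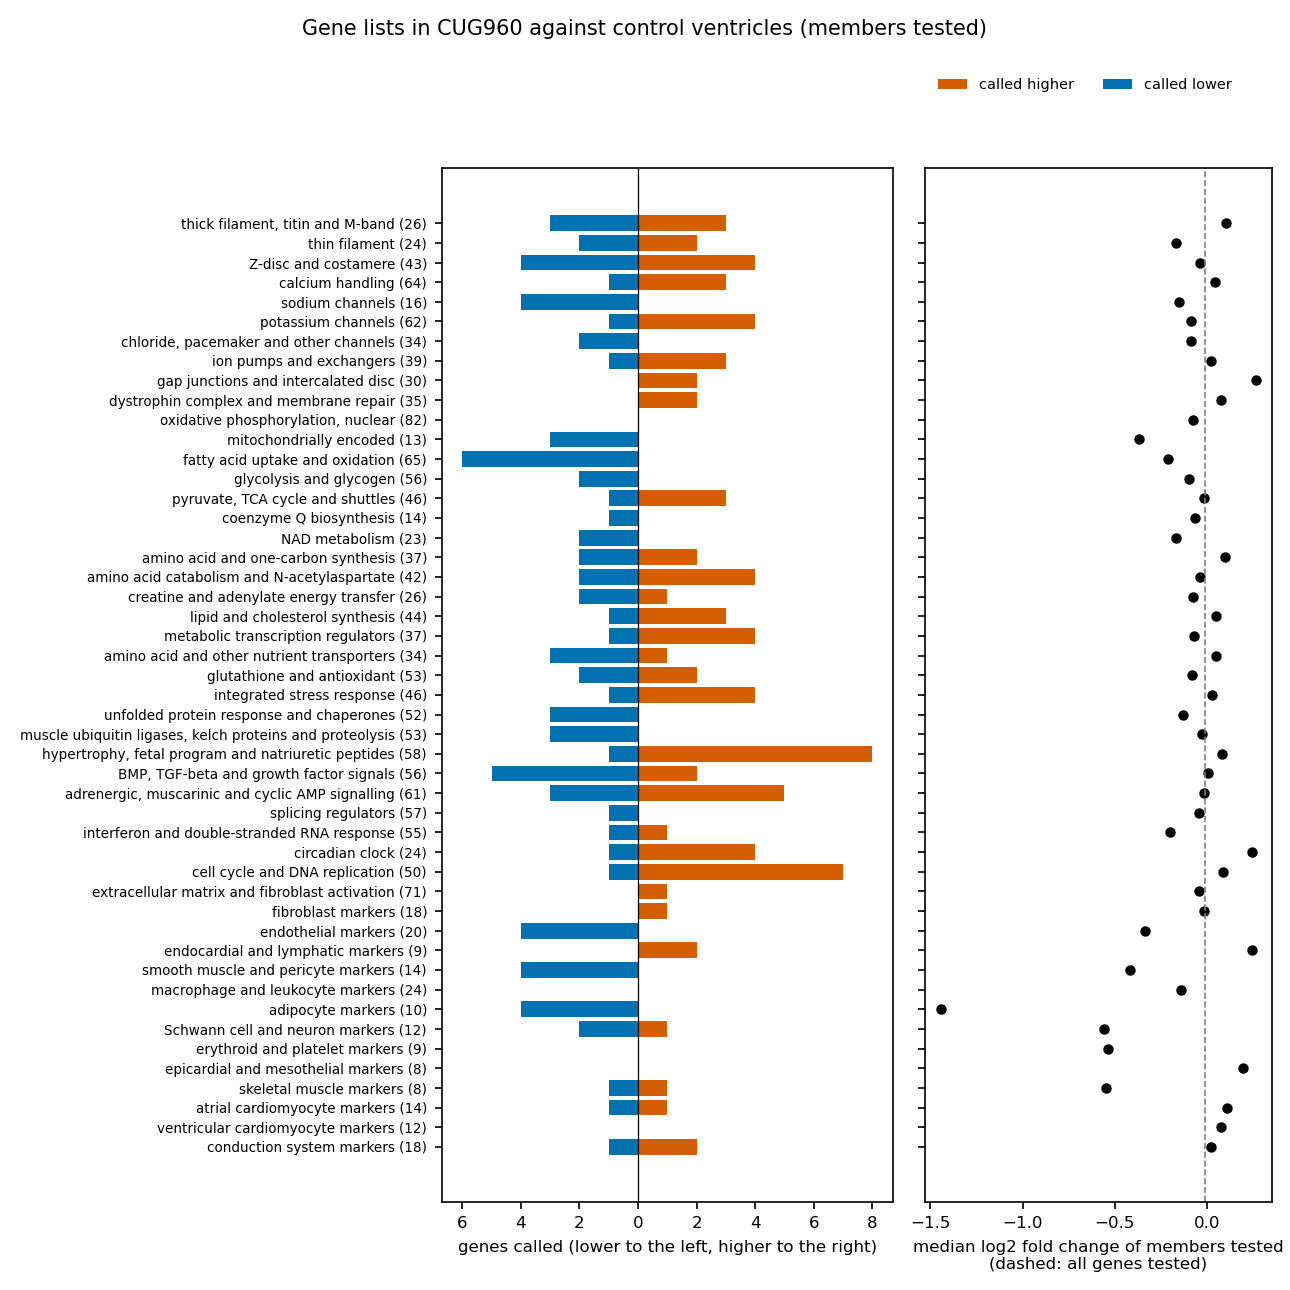
Counts of called genes (left, number of genes, lower to the left and higher to the right) and the median log2 fold change (right) for each gene list, with the number of members tested in parentheses and the median of all genes tested as a dashed line. All 6 called genes of the fatty acid list were lower, 8 of the 9 called genes of the hypertrophy list were higher, and no gene was called in the list of nuclear oxidative phosphorylation genes.

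Contraction genes changed in both directions, while the main filament genes of the ventricle were not called. Over the lists of thick filament, thin filament, Z-disc and calcium handling genes, 12 of 157 members tested rose and 10 fell, 14.0% in all beside 4.75% of all genes tested. Their median log2 fold change was 0.019, beside -0.0094 over all genes tested. Without V327 and without V334, 6 members fell. Myh6, the α-myosin heavy chain of adult mouse ventricle, had 19729, 20255 and 20558 CPM in controls and 23851, 24228 and 23797 CPM in CUG960 mice (log2 fold change 0.25 ± 0.09, adjusted P = 0.13). Actc1, the cardiac α-actin, had 9111, 9167 and 8273 CPM in controls and 8214, 9851 and 8843 CPM in CUG960 mice (log2 fold change 0.02 ± 0.10, adjusted P = 0.93). Tpm1, the main tropomyosin, had -0.01 on the log2 scale. Tnnt2, cardiac troponin T, had 5948, 6978 and 5312 CPM in controls and 4196, 5158 and 4534 CPM in CUG960 mice (log2 fold change -0.39 ± 0.13, adjusted P = 0.082). The change of Tnnt2 was not called although every CUG960 value was below every control value.

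In the thick filament and M-band list, 3 of 26 members rose and 3 fell (23.1%, beside 4.75% of all genes tested). Myom2 (chr8:15057653-15133541, GRCm38), an M-band protein of fast and adult cardiac muscle that cross-links myosin, had 727, 719 and 698 CPM in controls and 1495, 1711 and 1545 CPM in CUG960 mice. The groups were far apart and even within themselves, and Myom2 rose 2.22-fold (log2 fold change 1.15 ± 0.09, adjusted P = 9.2e-05). Its relative Myom3, an M-band protein of slower fibers, had 4.18, 5.14 and 4.84 CPM in controls and 9.49, 9.48 and 10.0 CPM in CUG960 mice and rose 2.05-fold (log2 fold change 1.03 ± 0.11, adjusted P = 5.9e-04). Mybphl, a myosin binding protein H-like gene of atrial and conduction tissue, had 2.02, 1.99 and 4.17 CPM in controls and 3.84, 16.9 and 16.1 CPM in CUG960 mice (log2 fold change 2.17 ± 0.50, adjusted P = 0.028), with V119 below the highest control. The atrially enriched Mybphl had 780.0 to 925 CPM of the unscaled total in the atrial libraries, and without V123 its log2 fold change was 1.93 at an adjusted P of 0.069. Mybpc2, the fast skeletal form of myosin binding protein C, had 65.4, 57.1 and 63.8 CPM in controls and 10.1, 14.3 and 14.9 CPM in CUG960 mice and fell 4.74-fold (log2 fold change -2.24 ± 0.14, adjusted P = 4.0e-05). Myl1, a fast skeletal myosin light chain, had 58.1, 67.4 and 55.1 CPM in controls and 16.1, 42.4 and 28.8 CPM in CUG960 mice (log2 fold change -1.05 ± 0.27, adjusted P = 0.042). Mybphl was not called without V327, V333, V120 or V123 (adjusted P up to 0.10), nor was Myl1 without V327, V333, V334 or V123 (adjusted P up to 0.10). Of 8 skeletal muscle markers tested, 1 rose and 1 fell (25%), with a median of -0.55. In DESeq2, which kept all 14 members of that list, the median was -0.096. The summed level of the skeletal muscle markers was 2272, 2359 and 2263 CPM in controls and 1501, 2099 and 1821 CPM in CUG960 mice, most of it Ckm. Ckm is also a heart gene, and Myl1 was the member that fell. Pvalb, a calcium buffer of fast fibers, was the member that rose, with 1, 4 and 0 counts in controls and 62, 27 and 22 counts in CUG960 mice. Pvalb was not called without V327 (adjusted P = 0.052). The skeletal fast myosins were near 0, Myh4 with 0 counts in every control and 4, 2 and 1 counts in CUG960 mice and Myh2 with 1 count in every control and 3, 15 and 10 counts in CUG960 mice. The part of skeletal muscle fibers in these values was not tested.

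In the thin filament list, 2 of 24 members rose and 2 fell (16.7%, beside 4.75% of all genes tested), and the median was -0.17. Tnni1 and Tnnt1, the slow skeletal troponin I and troponin T that are used in the embryonic heart, were the members that rose. Tnni1 had 0.203, 0.288 and 0.131 CPM in controls and 0.689, 0.508 and 0.736 CPM in CUG960 mice, so it stayed under 1 CPM, and Tnnt1 had 4.44, 5.24 and 4.53 CPM in controls and 7.28, 8.29 and 6.59 CPM in CUG960 mice (log2 fold change 0.64 ± 0.12, adjusted P = 0.013). Tmod4, a tropomodulin that caps the pointed ends of actin filaments, had 8.97, 10.5 and 8.47 CPM in controls and 5.23, 6.08 and 5.77 CPM in CUG960 mice and fell 1.63-fold. Lmod1, the smooth muscle leiomodin, had 4.86, 3.27 and 5.07 CPM in controls and 2.6, 3.03 and 2.24 CPM in CUG960 mice. Dstn, an actin-depolymerizing factor outside the list, was among the called genes with the most counts, with 115, 122 and 112 CPM in controls and 331, 320.1 and 359 CPM in CUG960 mice (log2 fold change 1.54 ± 0.08, adjusted P = 8.5e-06). The groups were far apart for Dstn, with little spread within either. Mylk4, a muscle kinase of the myosin light chain kinase family, had 171, 170.3 and 187 CPM in controls and 355, 317 and 359.7 CPM in CUG960 mice and rose 1.95-fold. Tnni1 was not called without V327, V119 or V123 (adjusted P up to 0.056), nor was Tnnt1 without V327 or V120 (adjusted P up to 0.055), nor was Lmod1 without V327, V334, V119, V120 or V123 (adjusted P up to 0.12).

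Of 43 Z-disc and costamere genes, 4 rose and 4 fell (18.6%, beside 4.75% of all genes tested). Ankrd1, a stretch-responsive protein that binds titin and also acts in the nucleus, had 1150.1, 858 and 956 CPM in controls and 1971, 2286 and 2356 CPM in CUG960 mice (log2 fold change 1.16 ± 0.12, adjusted P = 6.9e-04). Every CUG960 mouse was thus well above every control. Ankrd23, its relative in the same titin complex, moved the other way, with 632, 468 and 524 CPM in controls and 235, 367 and 294 CPM in CUG960 mice (log2 fold change -0.86 ± 0.16, adjusted P = 0.012). Of the PDZ-LIM proteins, which tether partners to α-actinin, Pdlim3 had 13.5, 11.8 and 12.7 CPM in controls and 18.4, 22.4 and 22.6 CPM in CUG960 mice and rose 1.67-fold, whereas Pdlim7 had 35.6, 35.1 and 30.7 CPM in controls and 10.1, 13.3 and 11.3 CPM in CUG960 mice and fell 2.93-fold (log2 fold change -1.55 ± 0.11, adjusted P = 8.7e-05). Myot, a Z-disc protein that bundles actin, had 28.9, 26 and 31.3 CPM in controls and 13.5, 16.3 and 19.6 CPM in CUG960 mice (log2 fold change -0.80 ± 0.13, adjusted P = 0.0068). Actn2, the sarcomeric α-actinin itself, had 1594, 1492 and 1444 CPM in controls and 1410.3, 1584 and 1626 CPM in CUG960 mice and a log2 fold change of 0.03. The other members that rose were Ankrd2, with 0.336, 0.222 and 0.193 CPM in controls and 0.481, 0.909 and 1.08 CPM in CUG960 mice, and Pdlim4, with 7.32, 10.8 and 8.77 CPM in controls and 13.8, 17.5 and 13.8 CPM in CUG960 mice. Ankrd2 was not called without V333, V334, V120 or V123 (adjusted P up to 0.069), nor was Pdlim4 without V327 or V120 (adjusted P up to 0.063).

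Capn3, the muscle calpain that binds titin, had 4.79, 4.62 and 5.31 CPM in controls and 0.891, 0.984 and 0.667 CPM in CUG960 mice and fell 5.78-fold (log2 fold change -2.53 ± 0.17, adjusted P = 5.6e-05). It was 1 of 3 of 53 members of the list of muscle ubiquitin ligases, kelch proteins and proteolysis that fell, and 0 rose (5.66%, near the 4.75% of all genes tested). The others were the kelch proteins Kbtbd12 and Klhl34. Kbtbd12 had 71.5, 73.2 and 71.2 CPM in controls and 38.6, 36.5 and 39.6 CPM in CUG960 mice (log2 fold change -0.91 ± 0.07, adjusted P = 9.3e-05). Klhl34 had 8.02, 5.61 and 6.16 CPM in controls and 2.62, 3.82 and 3.33 CPM in CUG960 mice (log2 fold change -1.02 ± 0.18, adjusted P = 0.0083). MEF2 factors are known to control muscle genes. RefSeq promoters (250 bases before to 50 after the start, GRCm38.p6) were searched on both strands for the MEF2 motif, the letters CTA and TAG with any 4 bases between them, which reads the same on both strands. It was held by the promoters of 14 of 204 called lower genes with a promoter in that table (6.86%), 13 of 343 called higher genes (3.79%) and 442 of 11674 genes tested (3.79%). These shares are a description without a test, and a match is not a binding site. Among the called members of the gene lists, the motif was held by the promoters of Capn3, Kbtbd12, Clcn1 and Pde8b, which fell, and of Ifit2, which rose. The windows of the 3 muscle genes among them are shown because the match, in capitals, lies close before a RefSeq start in each. It begins at -72 in Capn3, -91 in Kbtbd12 and -51 in Clcn1. For Capn3 and Kbtbd12 that start lies inside the annotated gene (chr2:120456019-120504913, plus strand, and chr6:88545114-88637950, minus strand). The matches of Kbtbd12 and Clcn1 also hold the letters TATAAA on 1 strand, so they overlap a TATA box motif. Pde8b was not called without V327, V334, V120 or V123 (adjusted P up to 0.11).
Capn3 (chr2:120463496-120463555, plus strand): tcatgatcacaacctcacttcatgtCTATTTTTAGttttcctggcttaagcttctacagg
Kbtbd12 (chr6:88627486-88627545, minus strand): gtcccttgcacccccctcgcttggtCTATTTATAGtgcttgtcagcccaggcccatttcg
Clcn1 (chr6:42286609-42286668, plus strand): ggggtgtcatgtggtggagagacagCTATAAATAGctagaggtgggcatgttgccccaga

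The same search for the ATF4 and C/EBP composite motif TGATGNAA found it in 10 of 204 called lower genes (4.90%), 9 of 343 called higher genes (2.62%) and 325 of 11674 genes tested (2.78%). The estrogen-related receptor motif TCAAGGTCA was held by 2 of 204 called lower genes, 0 of 343 called higher genes and 40 of 11674 genes tested. With so few promoters these shares are counts only.

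Of 64 calcium handling genes, 3 rose and 1 fell (6.25%, near the 4.75% of all genes tested), and the median was 0.045. Ryr2, the calcium release channel of the cardiac sarcoplasmic reticulum, was the member that fell, with 752, 564 and 818 CPM in controls and 467, 407 and 466 CPM in CUG960 mice (log2 fold change -0.67 ± 0.13, adjusted P = 0.015). Every CUG960 value was below every control value. Ryr3, a minor release channel, moved the other way at a low level, with 0.766, 0.56 and 0.595 CPM in controls and 1.06, 1.86 and 1.63 CPM in CUG960 mice (log2 fold change 1.24 ± 0.25, adjusted P = 0.016). Slc8a3, a sodium-calcium exchanger of skeletal muscle and brain, stayed under 1 CPM, with 0.0547, 0.0741 and 0.108 CPM in controls and 0.416, 0.414 and 0.417 CPM in CUG960 mice (log2 fold change 2.38 ± 0.35, adjusted P = 0.0035). Ppp1r1a, an inhibitor of protein phosphatase 1, had 1.65, 1.68 and 1.78 CPM in controls and 5.18, 5.57 and 3.03 CPM in CUG960 mice and rose 2.7-fold. Casq2, which stores calcium in the sarcoplasmic reticulum, had 859, 885 and 903 CPM in controls and 1273, 1235 and 1179 CPM in CUG960 mice, a log2 fold change of 0.48 at an adjusted P of 0.0064, below the fold change limit. Atp2a2, the calcium pump of the sarcoplasmic reticulum, and Pln, its inhibitor, had log2 fold changes of -0.12 and 0.12. Ryr2 was not called without V327, V334 or V120 (adjusted P up to 0.064), nor was Ryr3 without V120 (adjusted P = 0.064).

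**Figure D2:**
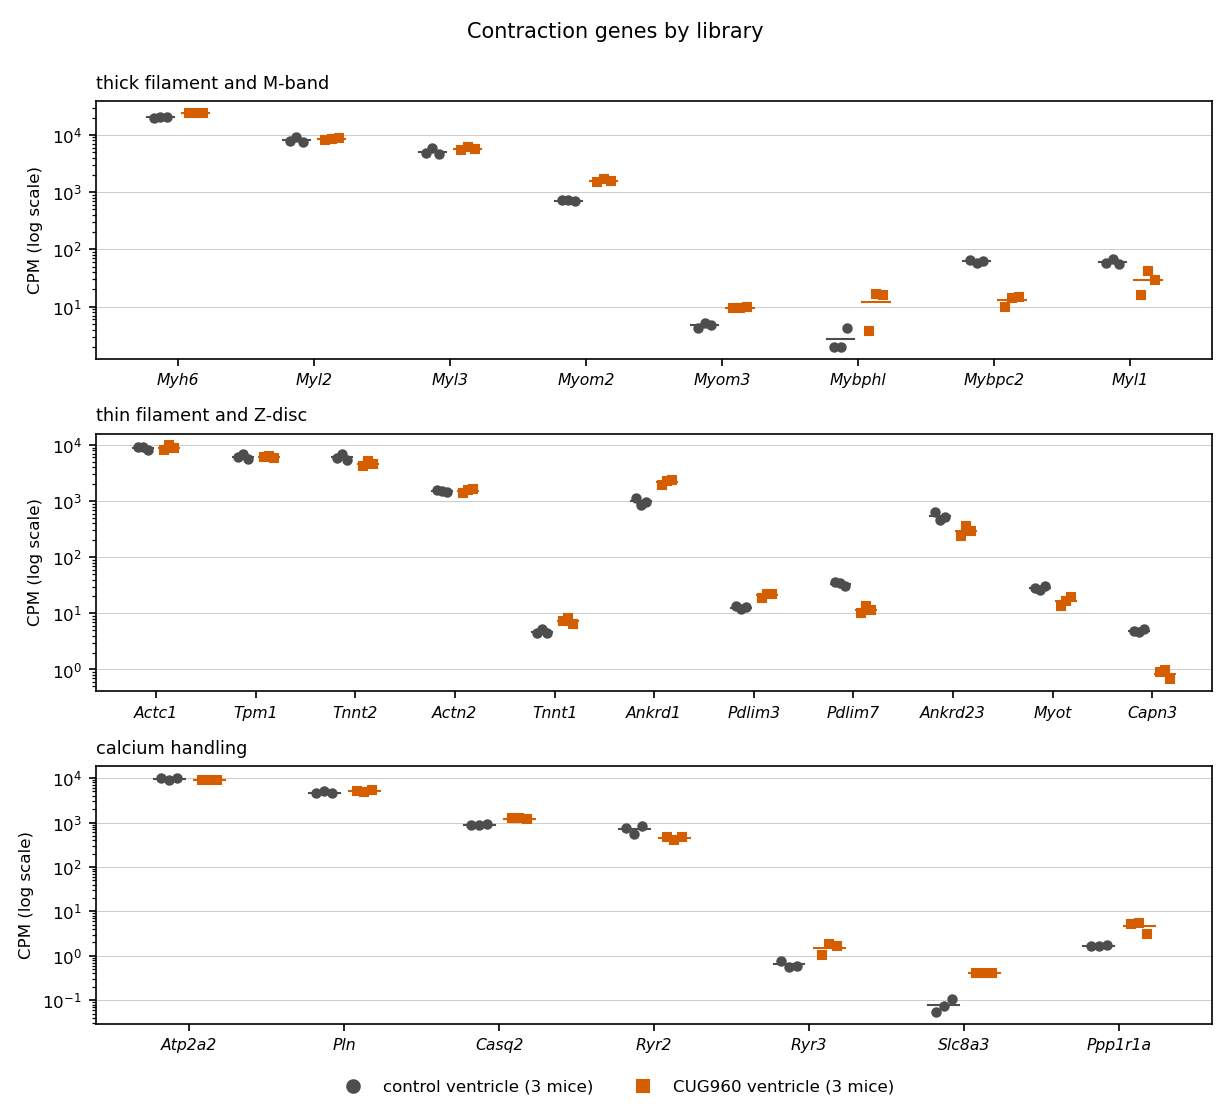
Expression of contraction genes in CPM (log scale) in each ventricular library, with controls as circles, CUG960 mice as squares and group means as lines. The groups overlap in the filament genes Myl2, Actc1 and Tpm1, Myh6 is slightly higher in all CUG960 mice without a call, and Myom2, Ankrd1, Pdlim7, Mybpc2 and Capn3, all called, separate the 3 CUG960 mice from the 3 controls.

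Metabolic genes were called in both directions. Over 13 lists that hold 514 tested members, 18 rose and 26 fell (8.56% in all, beside 4.75% of all genes tested), and the median log2 fold change was -0.079. Groups did not overlap for 67 members with higher and 127 with lower values in CUG960 mice, beside 16.3% and 14.9% of all genes tested. Without V327, however, 20 rose and 16 fell, and without V119, 19 rose and 19 fell. Where an absolute log2 fold change of at least 1.5 was required, 7 rose and 2 fell.

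Genes of the electron transport chain lie in the nuclear and the mitochondrial genome. Of 82 nuclear oxidative phosphorylation genes, 0 were called by edgeR in either direction, 0 had an adjusted P under 0.05, 0 higher and 4 lower had an unadjusted P under 0.05, and the median was -0.078. DESeq2 also called 0 of them. Atp5b, the catalytic β subunit of ATP synthase, had 4469.9, 4827 and 4437 CPM in controls and 4225, 4818 and 4357 CPM in CUG960 mice (log2 fold change -0.04 ± 0.09, adjusted P = 0.85). Of the 13 protein-coding genes of the mitochondrial genome, 3 fell, 0 rose and 10 were not called (23.1% called, beside 4.75% of all genes tested), and the median was -0.37. In 8 of the 13 every CUG960 value was lower than every control value, beside 14.9% of all genes tested. The difference between nuclear and mitochondrial genes was not tested. mt-Nd1, a complex I subunit, had 16009.6, 15462 and 13345 CPM in controls and 9951, 7918 and 9894 CPM in CUG960 mice (log2 fold change -0.69 ± 0.12, adjusted P = 0.0099). mt-Nd2, another complex I subunit, had 16200.3, 15077 and 13996 CPM in controls and 10790.2, 8335 and 10935 CPM in CUG960 mice (log2 fold change -0.59 ± 0.13, adjusted P = 0.021). mt-Co2, of complex IV, had 2940.4, 3079.9 and 1989 CPM in controls and 1639, 1672 and 1976 CPM in CUG960 mice (log2 fold change -0.60 ± 0.16, adjusted P = 0.046). mt-Co1, the member with the most counts, had 85603, 85801 and 86407 CPM in controls and 68426, 62184 and 68589.7 CPM in CUG960 mice (log2 fold change -0.37 ± 0.11, adjusted P = 0.056) and was not called. mt-Nd2 was not called without V327 or V120 (adjusted P up to 0.089), nor was mt-Co2 without V327, V333, V119, V120 or V123 (adjusted P up to 0.15).

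The mitochondrial ribosomal RNAs were also lower. mt-Rnr2 had 4006, 4335 and 4056 CPM in controls and 1662, 1808 and 2128 CPM in CUG960 mice (log2 fold change -1.15 ± 0.11, adjusted P = 3.7e-04) and mt-Rnr1 had 1779, 2339 and 1859 CPM in controls and 771, 987 and 1107 CPM in CUG960 mice (log2 fold change -1.06 ± 0.15, adjusted P = 0.0031). These RNAs are largely lost in poly(A) selection and the nuclear genome holds copies of mitochondrial genes, so their counts are uncertain. With mitochondrially encoded genes left out before scaling, the count of called genes was 796 beside 804, so the scaling of the other genes changed little without them.

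Coq8a (chr1:180165238-180199602, GRCm38), an atypical kinase of coenzyme Q biosynthesis, was the metabolic gene with the largest fall. It had 487, 528 and 463 CPM in controls and 76.4, 92.1 and 74.6 CPM in CUG960 mice (log2 fold change -2.6 ± 0.11, adjusted P = 1.9e-06), with every CUG960 mouse far below every control. Among the 14 coenzyme Q genes tested it was the only one called (7.14%, near the 4.75% of all genes tested). Coq10a, a coenzyme Q binding protein, had 259, 269 and 236 CPM in controls and 174, 182 and 186 CPM in CUG960 mice (log2 fold change -0.50, adjusted P = 0.0051), below the fold change limit, and Coq9 had a log2 fold change of -0.18.

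Of 26 genes of creatine and adenylate energy transfer, 1 rose and 2 fell (11.5%, beside 4.75% of all genes tested). Ckmt2 (chr13:91853387-91876885, GRCm38), the sarcomeric mitochondrial creatine kinase that makes phosphocreatine from mitochondrial ATP, had 1871, 2162 and 1762 CPM in controls and 631, 862 and 721 CPM in CUG960 mice and fell 2.62-fold (log2 fold change -1.39 ± 0.13, adjusted P = 3.4e-04). The cytosolic muscle enzyme Ckm had 1519, 1733 and 1465 CPM in controls and 1315, 1615 and 1415 CPM in CUG960 mice (log2 fold change -0.12 ± 0.11, adjusted P = 0.53). Ak4, an adenylate kinase of the mitochondrial matrix, had 71.1, 67.6 and 66.1 CPM in controls and 39, 30.6 and 35.5 CPM in CUG960 mice and fell 1.95-fold (log2 fold change -0.96 ± 0.09, adjusted P = 4.4e-04). Prkag2, a regulatory subunit of AMP-activated protein kinase, had 26.8, 24.7 and 25.8 CPM in controls and 42.8, 41.1 and 44.6 CPM in CUG960 mice and rose 1.66-fold (log2 fold change 0.73 ± 0.07, adjusted P = 5.2e-04). Slc25a4, the adenine nucleotide translocator of heart, had a log2 fold change of -0.11.

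Of 65 genes of fatty acid uptake and oxidation, 6 fell and 0 rose (9.23%, beside 4.75% of all genes tested), and the median was -0.21. At an adjusted P under 0.05 without the fold change limit, 12 members were lower and 0 higher, beside 711 and 969 of all 16909 genes. In 25 members the CUG960 values were all lower than the control values and in 2 all higher, beside 14.9% and 16.3% of all genes tested. The called members were Plin4, Plin5, Mgll, Acad11, Ucp2 and Fabp4. Plin4 and Plin5 coat lipid droplets, and Plin5 joins them to mitochondria in the heart. Plin4 had 244, 203 and 236 CPM in controls and 104, 139 and 138 CPM in CUG960 mice (log2 fold change -0.84 ± 0.12, adjusted P = 0.0035). Plin5 had 128, 126 and 108 CPM in controls and 53.9, 86.2 and 74.4 CPM in CUG960 mice (log2 fold change -0.76 ± 0.15, adjusted P = 0.016). Mgll, which releases the last fatty acid of a glyceride, had 255, 217 and 223 CPM in controls and 121, 117 and 144 CPM in CUG960 mice (log2 fold change -0.86 ± 0.10, adjusted P = 0.0012). Acad11, an acyl-CoA dehydrogenase, had 189, 179 and 179 CPM in controls and 87.1, 96.4 and 106 CPM in CUG960 mice and fell 1.89-fold (log2 fold change -0.92 ± 0.09, adjusted P = 3.2e-04). Ucp2, an uncoupling protein of the inner mitochondrial membrane, had 93.1, 76.4 and 73.4 CPM in controls and 34.1, 61.2 and 43 CPM in CUG960 mice.

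The members of the fatty acid list with the most counts had lower group means without a call. Hadhb, the thiolase subunit of the trifunctional protein, had 1856, 1878 and 1718 CPM in controls and 1288, 1325 and 1534 CPM in CUG960 mice (log2 fold change -0.39 ± 0.10, adjusted P = 0.033). Lpl, lipoprotein lipase, had 3409, 3189.8 and 3496 CPM in controls and 2716, 2618 and 2944 CPM in CUG960 mice (log2 fold change -0.29 ± 0.09, adjusted P = 0.079). Fabp3, the heart fatty acid binding protein, had 4361, 5003 and 4011 CPM in controls and 2972, 3710.2 and 4184 CPM in CUG960 mice, with overlapping groups. Fabp4, a lipid carrier of endothelial cells and adipocytes, was the other called member, with 525, 550.2 and 428 CPM in controls and 292, 335 and 365 CPM in CUG960 mice (log2 fold change -0.60 ± 0.12, adjusted P = 0.014). Of 10 adipocyte markers tested, 4 fell and 0 rose (40.0%, beside 4.75% of all genes tested), with a median of -1.44. They were Fabp4, Plin1, Cfd, an adipocyte complement protease with a log2 fold change of -1.92, and Retn, an adipocyte hormone under 1 CPM with -2.05. The summed level of the adipocyte markers was 560.0, 582 and 461 CPM in controls and 309, 356 and 392 CPM in CUG960 mice, most of it Fabp4. The defining markers were low, Adipoq with 185, 109 and 183 counts in controls and 63, 23 and 105 counts in CUG960 mice and Plin1 with 1.16, 0.963 and 1.07 CPM in controls and 0.291, 0.163 and 0.431 CPM in CUG960 mice (log2 fold change -1.86 ± 0.33, adjusted P = 0.0091), whereas Plin4 was at 104 CPM or more in every library. The part of fat cells in the lower values of the fatty acid list was not tested. Ucp2 was not called without V327, V333, V119 or V123 (adjusted P up to 0.093), nor was Plin5 without V327 (adjusted P = 0.056), nor was Fabp4 without V327, V333 or V119 (adjusted P up to 0.056), nor was Retn without V327, V333, V334, V119 or V120 (adjusted P up to 0.096).

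Of 56 glycolysis and glycogen genes, 2 fell and 0 rose (3.57%, near the 4.75% of all genes tested). Phkg1, the catalytic subunit of muscle phosphorylase kinase, had 46.8, 47.8 and 40.3 CPM in controls and 24.9, 26.3 and 16 CPM in CUG960 mice (log2 fold change -1.0 ± 0.17, adjusted P = 0.0068). Pfkfb1, a bifunctional enzyme that sets fructose 2,6-bisphosphate, had 4.17, 5.13 and 3.85 CPM in controls and 1.92, 2.68 and 1.72 CPM in CUG960 mice (log2 fold change -1.06 ± 0.19, adjusted P = 0.0097). Gapdh had 1864, 2001 and 1712 CPM in controls and 1489, 1965 and 1566 CPM in CUG960 mice, with overlapping groups. Pdk4, which shuts off pyruvate dehydrogenase and rises with fasting, had 865, 207 and 337 CPM in controls and 75, 166 and 87.3 CPM in CUG960 mice (log2 fold change -2.1 ± 0.49, adjusted P = 0.027). V327 stood far above the other controls in Pdk4, and without it the log2 fold change was -1.31. It was also highest in Txnip, a regulator of glucose uptake that was not called, with 656, 171 and 258 CPM in controls and 125, 185 and 162 CPM in CUG960 mice. Pdk3, a related kinase of low level in heart, had 1.38, 1.42 and 1.73 CPM in controls and 3.09, 3.0 and 3.16 CPM in CUG960 mice and rose 2.04-fold (log2 fold change 1.03 ± 0.15, adjusted P = 0.0031). Pdk4 was not called without V327, V119 or V123 (adjusted P up to 0.088).

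In the list of pyruvate and tricarboxylic acid cycle genes, 3 of 46 rose and 1 fell (8.7%, beside 4.75% of all genes tested). The member that fell was Pdk4, whose call was lost without V327, V119 or V123. Besides Pdk3, Acss3, a mitochondrial acyl-CoA synthetase, had 2.45, 2.66 and 2.61 CPM in controls and 11.5, 8.04 and 7.27 CPM in CUG960 mice (log2 fold change 1.79 ± 0.17, adjusted P = 3.7e-04). Ogdhl, a relative of the 2-oxoglutarate dehydrogenase subunit, had 167, 169.7 and 169.8 CPM in controls and 215, 313 and 262 CPM in CUG960 mice (log2 fold change 0.64 ± 0.12, adjusted P = 0.012). Ogdh, of the cycle itself, and Mdh1, of the malate shuttle, were not called, with log2 fold changes of -0.02 and -0.02. Sord, which makes fructose from sorbitol and is in no list, was among the called genes with the most counts, at 245, 239 and 234 CPM in controls and 346, 387 and 379 CPM in CUG960 mice (log2 fold change 0.63 ± 0.08, adjusted P = 0.0014). Ogdhl was not called without V120 (log2 fold change 0.50).

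**Figure D3:**
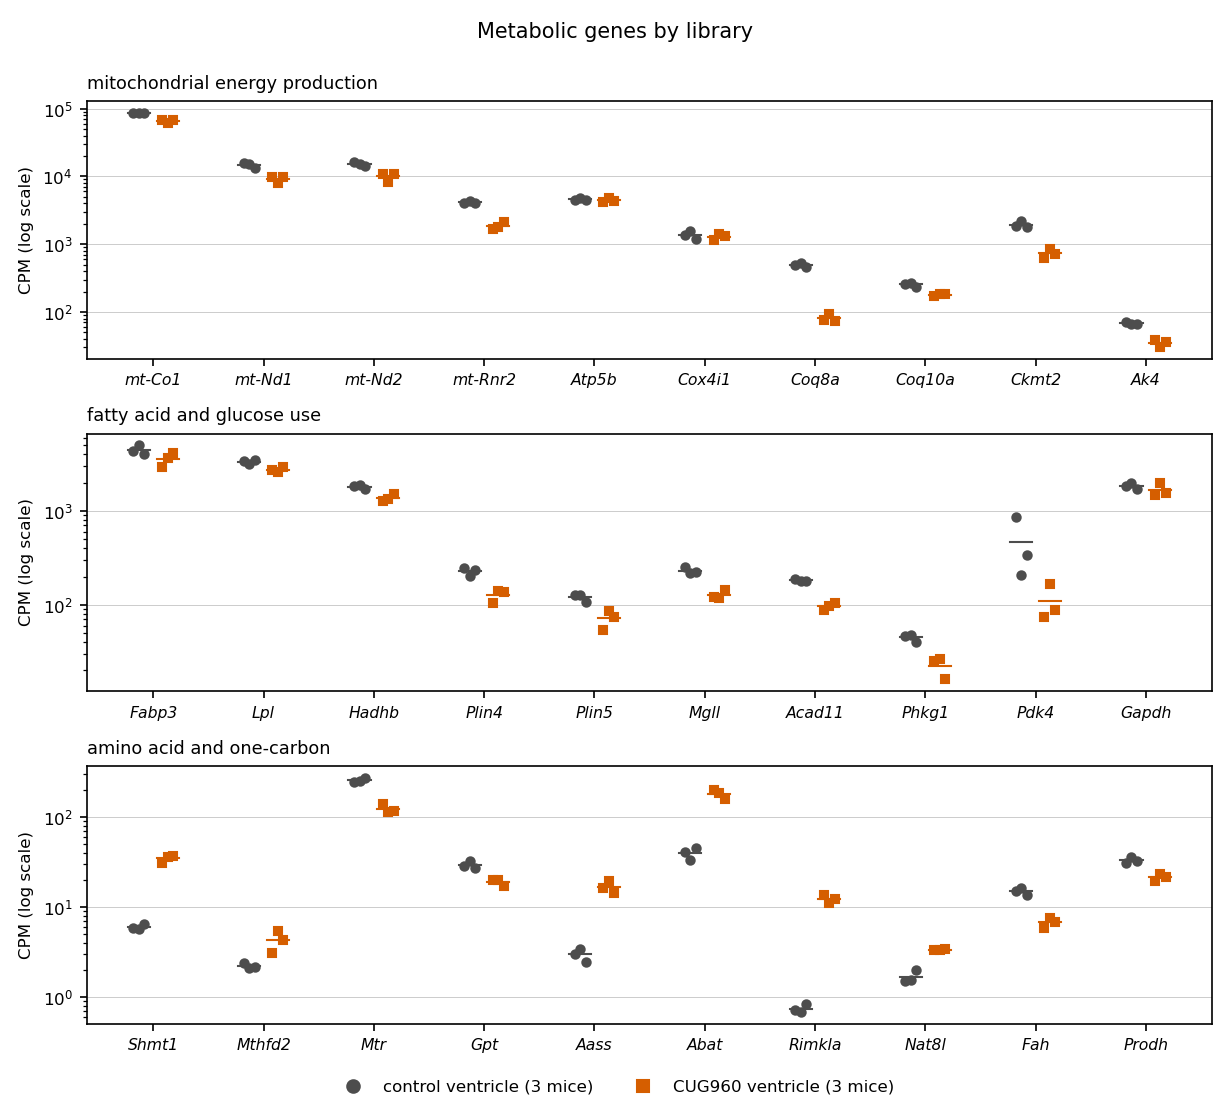
Expression of metabolic genes in CPM (log scale) in each ventricular library, with controls as circles, CUG960 mice as squares and group means as lines. Coq8a, Ckmt2, Ak4, Plin4, Mgll, Acad11, Mtr and Fah are lower and Shmt1, Aass, Abat, Rimkla and Nat8l higher in all CUG960 mice, the Pdk4 controls are spread by V327, and Atp5b, Cox4i1 and Gapdh overlap.

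Of 37 genes of amino acid and one-carbon synthesis, 2 rose and 2 fell (10.8%, beside 4.75% of all genes tested). Shmt1 (chr11:60788104-60811718, GRCm38), the cytosolic enzyme that moves a one-carbon unit from serine to folate, had 5.78, 5.71 and 6.53 CPM in controls and 31, 36 and 37.1 CPM in CUG960 mice and rose 5.78-fold (log2 fold change 2.53 ± 0.10, adjusted P = 2.0e-06). Mthfd2, its mitochondrial partner in folate metabolism, had 2.4, 2.09 and 2.14 CPM in controls and 3.07, 5.4 and 4.31 CPM in CUG960 mice (log2 fold change 0.95 ± 0.20, adjusted P = 0.018). Mtr (chr13:12182712-12258113, GRCm38), which uses folate to make methionine, had 243, 249.7 and 272 CPM in controls and 139, 114 and 118 CPM in CUG960 mice and fell 2.06-fold (log2 fold change -1.04 ± 0.09, adjusted P = 2.8e-04). Gpt, alanine aminotransferase, had 28.2, 32.7 and 27.3 CPM in controls and 19.9, 20.0 and 17.2 CPM in CUG960 mice (log2 fold change -0.63 ± 0.10, adjusted P = 0.0054). Mthfd2 was not called without V333 or V120 (adjusted P up to 0.059), nor was Gpt without V333 or V123 (log2 fold change -0.54).

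Amino acid breakdown and the making of N-acetylaspartate had 4 of 42 members higher and 2 lower (14.3%, beside 4.75% of all genes tested). Abat (chr16:8513429-8621568, GRCm38), which breaks down γ-aminobutyric acid, had 41.2, 33 and 45.5 CPM in controls and 197, 184 and 159 CPM in CUG960 mice and rose 4.51-fold (log2 fold change 2.17 ± 0.13, adjusted P = 2.5e-05). Aass, the first enzyme of lysine breakdown, had 3.02, 3.42 and 2.46 CPM in controls and 16.1, 19.4 and 14.3 CPM in CUG960 mice and rose 5.59-fold (log2 fold change 2.48 ± 0.16, adjusted P = 3.7e-05). Nat8l makes N-acetylaspartate and Rimkla joins it to glutamate, so these are consecutive steps of a pathway best known in neurons. Nat8l had 1.5, 1.55 and 1.97 CPM in controls and 3.37, 3.33 and 3.39 CPM in CUG960 mice (log2 fold change 1.01 ± 0.15, adjusted P = 0.0036). Rimkla had 0.711, 0.683 and 0.826 CPM in controls and 13.5, 11 and 12.1 CPM in CUG960 mice (log2 fold change 4.04 ± 0.14, adjusted P = 5.6e-07). The members that fell were Fah, of tyrosine breakdown, with 15.2, 16.4 and 13.7 CPM in controls and 5.78, 7.54 and 6.88 CPM in CUG960 mice (log2 fold change -1.16 ± 0.12, adjusted P = 5.8e-04), and Prodh, of proline breakdown, with 30.7, 35.5 and 32.5 CPM in controls and 19.3, 23.2 and 21.6 CPM in CUG960 mice (log2 fold change -0.62 ± 0.09, adjusted P = 0.0042). In these 6 genes no CUG960 value overlapped a control value. Prodh was not called without V333 or V119 (log2 fold change -0.56).

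In the list of lipid and cholesterol synthesis 3 of 44 members rose and 1 fell (9.09%, beside 4.75% of all genes tested). At an adjusted P under 0.05 without the fold change limit, 11 members were higher and 3 lower, beside 969 and 711 of all 16909 genes. Lss, which closes the sterol ring, had 1.66, 1.7 and 1.9 CPM in controls and 5.95, 5.44 and 5.09 CPM in CUG960 mice (log2 fold change 1.65 ± 0.13, adjusted P = 1.1e-04). Mvd, an earlier enzyme of the mevalonate pathway, had 5.0, 4.51 and 3.94 CPM in controls and 7.21, 8.16 and 7.35 CPM in CUG960 mice (log2 fold change 0.76 ± 0.12, adjusted P = 0.0054). Both act in cholesterol synthesis. Pemt makes phosphatidylcholine by methylation and had 0.883, 0.881 and 0.772 CPM in controls and 1.14, 1.9 and 1.58 CPM in CUG960 mice. Scd1, which puts a double bond into saturated fatty acids, had 26.1, 20.2 and 39.5 CPM in controls and 11.8, 10.6 and 19.7 CPM in CUG960 mice (log2 fold change -1.03 ± 0.27, adjusted P = 0.045). Pemt was not called without V327, V333, V334, V120 or V123 (adjusted P up to 0.12), nor was Scd1 without V327, V334, V119 or V120 (adjusted P up to 0.15).

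Of 37 transcription and sensor genes of metabolism, 4 rose and 1 fell (13.5%, beside 4.75% of all genes tested). Vdr, the vitamin D receptor, had 0.531, 0.387 and 0.463 CPM in controls and 2.56, 2.12 and 2.27 CPM in CUG960 mice and rose 5.02-fold (log2 fold change 2.33 ± 0.19, adjusted P = 1.6e-04). Esrrb, an estrogen-related receptor, had 36.6, 30.7 and 34.2 CPM in controls and 51.4, 58.7 and 51.9 CPM in CUG960 mice (log2 fold change 0.67 ± 0.09, adjusted P = 0.0023). Sesn2, a stress-induced sensor of leucine, had 4.35, 4.18 and 4.21 CPM in controls and 6.37, 7.96 and 6.73 CPM in CUG960 mice (log2 fold change 0.72 ± 0.12, adjusted P = 0.0056). Nr4a1, an immediate early nuclear receptor, had 4.39, 4.03 and 6.63 CPM in controls and 12.8, 9.58 and 6.91 CPM in CUG960 mice. Mlxipl, the glucose-responsive regulator of glycolytic and lipogenic genes, had 20.1, 19.2 and 20.3 CPM in controls and 10.7, 12.3 and 11.3 CPM in CUG960 mice (log2 fold change -0.80 ± 0.09, adjusted P = 8.7e-04). Nr4a1 was not called without V327, V333, V119 or V120 (adjusted P up to 0.12). Of 34 nutrient carriers 1 rose and 3 fell (11.8%). Slc38a1, a glutamine carrier, had 10.4, 9.87 and 11.9 CPM in controls and 18.4, 17.4 and 25.8 CPM in CUG960 mice (log2 fold change 0.93 ± 0.15, adjusted P = 0.0064). Slc38a3, a related carrier, had 64.9, 55.9 and 50.1 CPM in controls and 30.6, 37.6 and 40.3 CPM in CUG960 mice (log2 fold change -0.65 ± 0.12, adjusted P = 0.012). Slc7a1, a carrier of arginine and lysine, had 44.2, 40.5 and 44.2 CPM in controls and 32.4, 31.5 and 20.9 CPM in CUG960 mice. Slc6a17, a carrier of neutral amino acids in synaptic vesicles, had 12.9, 10.1 and 10.8 CPM in controls and 7.92, 6.02 and 5.56 CPM in CUG960 mice. Slc38a3 was not called without V327 or V119 (log2 fold change -0.55), nor was Slc7a1 without V327, V333, V334, V120 or V123 (adjusted P up to 0.10), nor was Slc6a17 without V120 (adjusted P = 0.054). Of 23 genes of NAD metabolism, 2 fell and 0 rose (8.7%). Naprt, which makes NAD precursors from nicotinic acid, had 13, 14.9 and 10.5 CPM in controls and 7.81, 8.77 and 8.17 CPM in CUG960 mice, and Aox1, an oxidase of nicotinamide derivatives, had 20.9, 21.8 and 25 CPM in controls and 13.4, 15.4 and 14.3 CPM in CUG960 mice (log2 fold change -0.65 ± 0.10, adjusted P = 0.0043). Naprt was not called without V327, V333, V119 or V123 (adjusted P up to 0.058), nor was Aox1 without V334 (log2 fold change -0.57).

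Over the lists of channels, pumps, junctions and the dystrophin complex, 11 of 215 rose and 8 fell (8.84%, beside 4.75% of all genes tested). In the list of gap junctions and intercalated disc, 2 of 30 rose and 0 fell (6.67%), the median was 0.27, and 17 members were higher and 3 lower without overlap of the groups, beside 16.3% and 14.9% of all genes tested. Plekha7 (chr7:116123485-116308376, GRCm38), an adapter of adherens junctions, had 2.07, 2.75 and 2.86 CPM in controls and 21.7, 18.5 and 17.8 CPM in CUG960 mice and rose 7.55-fold (log2 fold change 2.92 ± 0.14, adjusted P = 6.4e-06). Pkp4, a plakophilin relative of the same junctions, had 102, 95.9 and 111 CPM in controls and 191, 191 and 199.9 CPM in CUG960 mice (log2 fold change 0.91 ± 0.08, adjusted P = 2.0e-04). Ctnnb1, β-catenin, had 459, 458 and 458 CPM in controls and 549, 525 and 558 CPM in CUG960 mice (log2 fold change 0.25, adjusted P = 0.062), and Dsp, desmoplakin, had 0.05 on the log2 scale. In the dystrophin complex, 2 of 35 rose and 0 fell (5.71%), the syntrophin Sntb1 with 1.71, 1.14 and 2.19 CPM in controls and 5.1, 3.74 and 4.3 CPM in CUG960 mice (log2 fold change 1.38 ± 0.23, adjusted P = 0.0065) and the sarcospan gene Sspn with 159.5, 151 and 173 CPM in controls and 252, 235 and 257 CPM in CUG960 mice (log2 fold change 0.62 ± 0.08, adjusted P = 0.0019). Sspn was not called without V333 (log2 fold change 0.58).

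Of 16 sodium channel genes 4 fell and 0 rose (25%, beside 4.75% of all genes tested), and of 62 potassium channel genes 4 rose and 1 fell (8.06%). Scn10a, a sodium channel best known in sensory neurons, had 2.81, 3.05 and 2.3 CPM in controls and 0.683, 0.683 and 0.431 CPM in CUG960 mice (log2 fold change -2.18 ± 0.22, adjusted P = 5.0e-04). Fgf11, a fibroblast growth factor homologue of the sodium channel list, had 3.42, 4.03 and 4.26 CPM in controls and 2.63, 2.43 and 2.54 CPM in CUG960 mice (log2 fold change -0.62 ± 0.13, adjusted P = 0.018). Fgf11 was not called without V334, V120 or V123 (adjusted P up to 0.064). Scn4a, the skeletal muscle sodium channel, had 29.2, 25.6 and 33.8 CPM in controls and 15.2, 17.5 and 18.9 CPM in CUG960 mice (log2 fold change -0.78 ± 0.12, adjusted P = 0.0048). Kcna4, a channel of the transient outward current, had 0.782, 1.47 and 0.942 CPM in controls and 7.42, 6.49 and 5.73 CPM in CUG960 mice (log2 fold change 2.62 ± 0.22, adjusted P = 2.1e-04). Kcne1, a subunit of the slow delayed rectifier, had 0.664, 0.502 and 0.579 CPM in controls and 1.75, 1.52 and 1.91 CPM in CUG960 mice (log2 fold change 1.57 ± 0.19, adjusted P = 0.0016). Kcnv2, a silent subunit that modifies other channels, had 16, 18.5 and 19.8 CPM in controls and 3.2, 4.55 and 3.82 CPM in CUG960 mice and fell 4.69-fold. Clcn1, the skeletal muscle chloride channel whose missplicing causes myotonia in this disease, was under 1 CPM in every library, with 0.477, 0.634 and 0.61 CPM in controls and 0.202, 0.113 and 0.236 CPM in CUG960 mice (log2 fold change -1.64 ± 0.33, adjusted P = 0.016). Of 39 ion pumps and exchangers, 3 rose and 1 fell (10.3%). Slc9a8, a sodium-proton exchanger of the Golgi, was the member that fell, with 26.1, 22.6 and 24.6 CPM in controls and 12.3, 15.5 and 13.6 CPM in CUG960 mice (log2 fold change -0.82 ± 0.11, adjusted P = 0.0018). Atp1b4, a muscle relative of the sodium pump β subunits, stayed under 1 CPM, with 0.0234, 0.0165 and 0.00772 CPM in controls and 0.131, 0.407 and 0.229 CPM in CUG960 mice (log2 fold change 3.94 ± 0.64, adjusted P = 0.0058). The other members that rose were Slc9a7, a related exchanger, with 0.602, 0.42 and 0.718 CPM in controls and 1.79, 1.18 and 0.924 CPM in CUG960 mice, and Slc24a2, a potassium-dependent sodium-calcium exchanger, with 5.68, 4.36 and 6.58 CPM in controls and 7.31, 9.02 and 13.2 CPM in CUG960 mice. Slc9a7 was not called without V327, V333, V119 or V120 (adjusted P up to 0.13), nor was Slc24a2 without V327, V333, V120 or V123 (adjusted P up to 0.11).

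Genes of the hypertrophy and fetal program rose in 8 of 58 and fell in 1 of 58, 15.5% in all beside 4.75% of all genes tested, with a median of 0.083. Agtr1a, the angiotensin II receptor, had 28.3, 32.1 and 28.5 CPM in controls and 61.3, 55.5 and 58.9 CPM in CUG960 mice and rose 1.98-fold (log2 fold change 0.98 ± 0.08, adjusted P = 1.6e-04). Nppa, the atrial natriuretic peptide, had 42, 47.1 and 73.4 CPM in controls and 75, 194 and 132 CPM in CUG960 mice (log2 fold change 1.3 ± 0.31, adjusted P = 0.031). Its atrial level was 13500 to 19200 CPM of the unscaled total, and without V123 its log2 fold change was 1.31 at an adjusted P of 0.063. Nppb, the companion peptide, was named after its values were seen, and had 133, 71.9 and 75.2 CPM in controls and 45.3, 106 and 108 CPM in CUG960 mice. Myh7, the β-myosin heavy chain that marks fetal and failing rodent ventricle, had 1160.2, 1342 and 1000.3 CPM in controls and 1252, 1454 and 1493 CPM in CUG960 mice (log2 fold change 0.26 ± 0.12, adjusted P = 0.21). Acta1, skeletal α-actin, had 694, 557 and 741 CPM in controls and 169, 440.3 and 375 CPM in CUG960 mice (log2 fold change -1.02 ± 0.29, adjusted P = 0.054), with all CUG960 values lower. Of these markers Nppa was the only one called. Npr3, the clearance receptor of the natriuretic peptides, had 20.8, 22.2 and 25.3 CPM in controls and 35.9, 35.8 and 37.4 CPM in CUG960 mice (log2 fold change 0.68 ± 0.09, adjusted P = 0.0021). Nppa was not called without V327, V333, V120 or V123 (adjusted P up to 0.10).

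Of 61 transcripts of adrenergic, muscarinic and cyclic AMP signalling, 5 rose, 3 fell and 53 were not called (13.1% called, beside 4.75% of all genes tested), and the median was -0.017. Adora1, the adenosine receptor that slows the heart, had 23.2, 25 and 25.6 CPM in controls and 47.9, 52.3 and 44 CPM in CUG960 mice (log2 fold change 0.97 ± 0.09, adjusted P = 2.6e-04), and Rgs6, which ends muscarinic and adenosine signals to potassium channels, had 17, 15.5 and 16.6 CPM in controls and 31.8, 33 and 30.7 CPM in CUG960 mice (log2 fold change 0.96 ± 0.08, adjusted P = 1.7e-04). The groups lay far apart in both, with little spread. Adora2a, the vascular adenosine receptor, had 8.5, 8.99 and 7.98 CPM in controls and 5.43, 5.92 and 5.25 CPM in CUG960 mice (log2 fold change -0.62 ± 0.10, adjusted P = 0.0065). Adcy1, an adenylyl cyclase that calcium stimulates and that is in no list, had 0.938, 0.881 and 1.42 CPM in controls and 6.3, 9.47 and 5.74 CPM in CUG960 mice (log2 fold change 2.73 ± 0.24, adjusted P = 2.6e-04). Of 56 genes of BMP, TGF-β and growth factor signals, 2 rose and 5 fell (12.5%). Bmp10, a cardiac growth factor of the atria in adults, had 2.1, 2.07 and 3.24 CPM in controls and 0.0297, 0.238 and 0.181 CPM in CUG960 mice (log2 fold change -4.06 ± 0.50, adjusted P = 0.0016). All CUG960 mice were far below the controls. Myl7, the atrial light chain given above, was lower than in every control in V119 and V120 and higher than in every control in V123, and the part of atrial tissue in the values of Bmp10 was not tested. Without V123 the log2 fold change of Bmp10 was -4.21 at an adjusted P of 0.0057. The CUG960 mice left in that fit, V119 and V120, were below every control in Myl7. That fit therefore cannot tell a fall of Bmp10 apart from less atrial tissue. Sfrp2, a secreted modulator of Wnt signals, had 0.516, 0.617 and 0.734 CPM in controls and 1.29, 1.98 and 1.58 CPM in CUG960 mice (log2 fold change 1.38 ± 0.23, adjusted P = 0.0066). Pdgfd had 12.8, 11.9 and 14.5 CPM in controls and 7.81, 8.3 and 8.28 CPM in CUG960 mice (log2 fold change -0.68 ± 0.10, adjusted P = 0.0038). Adora2a was not called without V333 or V123 (log2 fold change -0.57).

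Of 50 cell cycle and replication genes, 7 rose and 1 fell (16.0%, beside 4.75% of all genes tested), and the median was 0.085. Ccne1, cyclin E, had 1.47, 2.03 and 1.51 CPM in controls and 9.27, 8.79 and 9.03 CPM in CUG960 mice and rose 5.4-fold (log2 fold change 2.43 ± 0.14, adjusted P = 2.5e-05). Ccnd2, a D-type cyclin of heart muscle, had 76.1, 71.3 and 94.2 CPM in controls and 226, 236 and 260.4 CPM in CUG960 mice (log2 fold change 1.58 ± 0.11, adjusted P = 8.3e-05). Mcm2, a subunit of the replicative helicase, had 5.03, 4.31 and 4.72 CPM in controls and 13, 11.9 and 9.49 CPM in CUG960 mice (log2 fold change 1.29 ± 0.13, adjusted P = 5.4e-04). E2f1, the transcription factor that D and E cyclins release, had 1.16, 1.47 and 1.14 CPM in controls and 2.84, 4.99 and 2.1 CPM in CUG960 mice (log2 fold change 1.39 ± 0.29, adjusted P = 0.019). Ube2c, a mitotic ubiquitin conjugase, had 1.25, 2.01 and 1.37 CPM in controls and 4.54, 4.84 and 3.07 CPM in CUG960 mice (log2 fold change 1.43 ± 0.23, adjusted P = 0.0054). Ccnd3 and Cdk4 had log2 fold changes of 0.06 and 0.03, and Cdk6, a kinase of the same step, had 7.92, 6.68 and 8.47 CPM in controls and 4.98, 4.54 and 4.78 CPM in CUG960 mice (log2 fold change -0.69 ± 0.12, adjusted P = 0.0076). E2f1 was not called without V327 or V334 (adjusted P up to 0.066).

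In the circadian clock list 4 of 24 members rose and 1 fell (20.8%, beside 4.75% of all genes tested), and the median was 0.25. The time of day at which tissue was taken is not given in the labels, and it cannot be told apart from genotype. Npas2, a partner of the clock activator, had 0.969, 1.1 and 1.24 CPM in controls and 4.21, 3.51 and 2.13 CPM in CUG960 mice (log2 fold change 1.57 ± 0.24, adjusted P = 0.0050). Ciart, a repressor, had 2.4, 1.35 and 1.06 CPM in controls and 4.81, 4.23 and 4.74 CPM in CUG960 mice (log2 fold change 1.52 ± 0.26, adjusted P = 0.0079). Rorb had 0.414, 0.255 and 0.533 CPM in controls and 2.73, 1.74 and 2.31 CPM in CUG960 mice (log2 fold change 2.49 ± 0.28, adjusted P = 0.0010). Dbp, an output factor with strong daily swings, had 65.2, 29.6 and 24.2 CPM in controls and 88.6, 87.9 and 81.3 CPM in CUG960 mice, and Nfil3, its antagonist, had 11.8, 18.2 and 18.7 CPM in controls and 8.04, 10.6 and 11.2 CPM in CUG960 mice. V327 was higher in Dbp than the other controls. Dbp was not called without V333, V334, V119, V120 or V123 (adjusted P up to 0.13), nor was Nfil3 without V333, V334, V119, V120 or V123 (adjusted P up to 0.12).

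The integrated stress response list had 4 of 46 members higher and 1 lower (10.9%, beside 4.75% of all genes tested). Gdf15, a stress-induced cytokine, had 1.5, 0.667 and 1.2 CPM in controls and 2.41, 4.09 and 2.14 CPM in CUG960 mice (log2 fold change 1.36 ± 0.32, adjusted P = 0.030). Eif4ebp1, a translation repressor, had 43, 48.1 and 42.9 CPM in controls and 62.7, 79.1 and 65.4 CPM in CUG960 mice (log2 fold change 0.63 ± 0.10, adjusted P = 0.0055). Atf4, the transcription factor of this response, had 74.2, 91.2 and 83.4 CPM in controls and 70.1, 82.3 and 77 CPM in CUG960 mice (log2 fold change -0.12 ± 0.09, adjusted P = 0.49). Of 52 genes of the unfolded protein response and chaperones, 3 fell and 0 rose (5.77%, near that background). Cdnf, a secreted factor of the endoplasmic reticulum, had 26.1, 26 and 25.8 CPM in controls and 2.82, 3.1 and 2.76 CPM in CUG960 mice (log2 fold change -3.17 ± 0.09, adjusted P = 2.0e-07). Hsp90aa1, the inducible cytosolic HSP90, had 286, 255 and 278 CPM in controls and 157, 185 and 185 CPM in CUG960 mice (log2 fold change -0.63 ± 0.09, adjusted P = 0.0031), whereas the constitutive Hsp90ab1 had a log2 fold change of -0.07. Gpx3, a secreted glutathione peroxidase, had 215, 201 and 208 CPM in controls and 278, 334.04 and 347 CPM in CUG960 mice (log2 fold change 0.62 ± 0.09, adjusted P = 0.0043). Ces1d, a carboxylesterase, had 57.1, 64.4 and 52.6 CPM in controls and 35.9, 26 and 31.3 CPM in CUG960 mice (log2 fold change -0.90 ± 0.12, adjusted P = 0.0024). Close relatives of Ces1d could share its reads. Of 55 interferon genes, 1 rose and 1 fell (3.64%, below that background), with 11.7, 14.6 and 17.6 CPM in controls and 26.7, 21.6 and 23.2 CPM in CUG960 mice for Ifit2 and 9.36, 13.9 and 12.8 CPM in controls and 7.57, 5.82 and 7.13 CPM in CUG960 mice for Rsad2. Ifit2 was not called without V327 or V119 (adjusted P up to 0.059), nor was Rsad2 without V120 (adjusted P = 0.056). Gdf15 was not called without V333, V334 or V120 (adjusted P up to 0.10), nor was Eif4ebp1 without V120 (log2 fold change 0.52), nor was Hsp90aa1 without V119 (log2 fold change -0.56), nor was Gpx3 without V123 (log2 fold change 0.56).

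Of 20 endothelial markers, 4 fell (20.0%, beside 4.75% of all genes tested) and 0 rose, with a median of -0.34. At an adjusted P under 0.05 without the fold change limit, 10 markers were lower and 0 higher, beside 711 and 969 of all 16909 genes. The summed level of the endothelial markers was 1962, 1872 and 1849 CPM in controls and 1306, 1368 and 1449 CPM in CUG960 mice. Fabp4 was the member with the most counts. Eng had 162, 148 and 163 CPM in controls and 98.4, 105 and 107 CPM in CUG960 mice (log2 fold change -0.60 ± 0.07, adjusted P = 0.0016), and the defining gene Cdh5 had 164, 152 and 184 CPM in controls and 129.9, 115 and 129 CPM in CUG960 mice (log2 fold change -0.42 ± 0.09, adjusted P = 0.022), below the fold change limit. Of 14 smooth muscle and pericyte markers, 4 fell (28.6%) and 0 rose, with a median of -0.41. Their summed level was 1269, 1170 and 1279 CPM in controls and 993, 954 and 932 CPM in CUG960 mice, and Rgs5 had the most counts, at 404, 431 and 434 CPM in controls and 314, 268 and 325 CPM in CUG960 mice (log2 fold change -0.48 ± 0.09, adjusted P = 0.012). Acta2, smooth muscle α-actin, had 122, 95.2 and 95.5 CPM in controls and 104, 175 and 90.7 CPM in CUG960 mice (log2 fold change 0.24 ± 0.22, adjusted P = 0.53), with overlapping groups. Vtn, of pericytes, had 16.2, 17.9 and 15.6 CPM in controls and 10.4, 10.2 and 10.3 CPM in CUG960 mice (log2 fold change -0.69 ± 0.09, adjusted P = 0.0018). Myh11, of contractile smooth muscle, had 56.1, 35 and 58 CPM in controls and 34.2, 30.8 and 29.8 CPM in CUG960 mice (log2 fold change -0.65 ± 0.17, adjusted P = 0.039). Myh11 and Lmod1 also stand in the contraction lists, and the part of vessel cells in those 2 calls was not tested. The other members that fell were the endothelial genes Cldn5, Ly6c1 and Fabp4, with log2 fold changes of -0.62, -0.61 and -0.60, and the smooth muscle genes Mylk and Tagln, with -0.71 and -0.63. Eng was not called without V327, V334 or V119 (log2 fold change -0.57), nor was Cldn5 without V333, V119 or V120 (adjusted P up to 0.057), nor was Ly6c1 without V333 or V119 (log2 fold change -0.49), nor was Fabp4 without V327, V333 or V119 (adjusted P up to 0.056). Myh11 was not called without V327, V334, V119, V120 or V123 (adjusted P up to 0.13), nor was Mylk without V327, V334, V120 or V123 (adjusted P up to 0.083), nor was Tagln without V327, V334, V119 or V123 (adjusted P up to 0.14). Of the called vessel markers Vtn alone was called whichever mouse was left out.

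Of 18 fibroblast markers 1 rose and 0 fell (5.56%, near the 4.75% of all genes tested), with a median of -0.016, and their sums overlapped. Of 71 extracellular matrix genes 1 rose and 0 fell (1.41%). That gene was Fbn2, a fibrillin of developing tissue, with 0.68, 0.897 and 1.33 CPM in controls and 4.47, 4.43 and 2.15 CPM in CUG960 mice (log2 fold change 1.93 ± 0.32, adjusted P = 0.0069), while Dcn and Col3a1 had log2 fold changes of -0.01 and 0.15. Of 24 macrophage and leukocyte markers, edgeR called 0, with 0 higher and 4 lower at an unadjusted P under 0.05, whereas DESeq2 called 4 lower. Their sums overlapped. Of 12 Schwann cell and neuron markers, 1 rose and 2 fell (25%). Dbh, which makes noradrenaline, had 3.43, 3.97 and 2.66 CPM in controls and 1.76, 0.984 and 0.84 CPM in CUG960 mice (log2 fold change -1.48 ± 0.28, adjusted P = 0.011), but Th had 0 counts in 4 libraries and 1 in each of V119 and V123. Of 12 ventricular cardiomyocyte markers, edgeR and DESeq2 both called 0, with 3 higher and 2 lower at an unadjusted P under 0.05, and the median was 0.079. Dbh was not called without V120 (adjusted P = 0.054). Of 9 endocardial and lymphatic markers 2 rose and 0 fell (22.2%), Npr3 and the lymphatic chemokine Ccl21a, which had 21.7, 17.1 and 19.5 CPM in controls and 27, 36.9 and 37.3 CPM in CUG960 mice (log2 fold change 0.80 ± 0.14, adjusted P = 0.0079). Of 18 conduction system markers 2 rose and 1 fell (16.7%). Erythroid and platelet markers, whose globin genes have near-identical copies, had 0 of 9 called by edgeR and by DESeq2, with 5 lower and 0 higher at an unadjusted P under 0.05. Of 8 epicardial and mesothelial markers edgeR called 0 and DESeq2 called 1 lower, with 2 lower and 0 higher at an unadjusted P under 0.05.

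**Figure D4:**
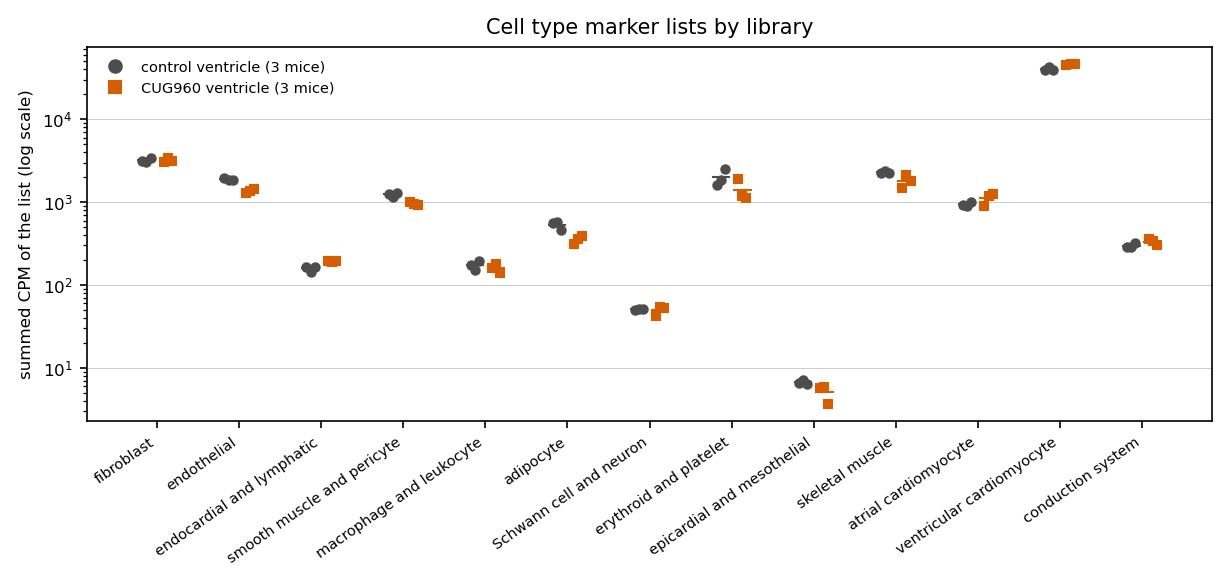
Summed CPM (log scale) of each cell type marker list in every ventricular library, with controls as circles, CUG960 mice as squares and group means as lines. The endothelial, smooth muscle and pericyte, and adipocyte sums are lower in all 3 CUG960 mice, whereas the fibroblast and leukocyte sums overlap.

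Several of the largest changes lay outside the lists. The largest at a mean level of 1 CPM or more was that of 3110035E14Rik, which had 0.117, 0.165 and 0.201 CPM in controls and 25.1, 24.3 and 23.7 CPM in CUG960 mice and rose 151-fold (log2 fold change 7.23 ± 0.16, adjusted P = 2.5e-08). Gm10163, annotated as a processed pseudogene, so that its reads may be shared with a related gene, had 0.61, 0.617 and 0.525 CPM in controls and 50.9, 48.2 and 62.8 CPM in CUG960 mice and rose 92.3-fold (log2 fold change 6.53 ± 0.15, adjusted P = 2.5e-08). Pld6, a mitochondrial phospholipase D family member, had 0.219, 0.231 and 0.239 CPM in controls and 5.09, 4.21 and 3.88 CPM in CUG960 mice and rose 19.1-fold (log2 fold change 4.25 ± 0.18, adjusted P = 2.1e-06). All 3 genes were under 1 CPM in every control, and in atria their log2 fold changes were 7.5, 6.66 and 4.29. Erc2, an active zone scaffold of synapses, had 0.446, 0.428 and 0.494 CPM in controls and 5.46, 4.68 and 4.94 CPM in CUG960 mice (log2 fold change 3.46 ± 0.15, adjusted P = 2.1e-06). Syn2, a synaptic vesicle protein, had 3.56, 2.82 and 4.44 CPM in controls and 23, 38.894 and 27.7 CPM in CUG960 mice (log2 fold change 3.05 ± 0.22, adjusted P = 8.6e-05). Cited1, a transcriptional coregulator, had 0.336, 0.272 and 0.247 CPM in controls and 2.61, 3.21 and 1.65 CPM in CUG960 mice (log2 fold change 3.12 ± 0.28, adjusted P = 2.6e-04). Cubn, a receptor for vitamin B12 uptake, had 0.328, 0.165 and 0.185 CPM in controls and 3.5, 2.45 and 3.27 CPM in CUG960 mice (log2 fold change 3.76 ± 0.28, adjusted P = 8.7e-05). Among genes that fell, Egf, epidermal growth factor, had 6.11, 4.69 and 5.19 CPM in controls and 0.897, 1.13 and 1.53 CPM in CUG960 mice (log2 fold change -2.17 ± 0.20, adjusted P = 3.4e-04). Rp1, a microtubule protein of photoreceptors, had 4.47, 4.27 and 3.85 CPM in controls and 0.546, 0.526 and 0.403 CPM in CUG960 mice (log2 fold change -3.09 ± 0.17, adjusted P = 1.4e-05). Mfsd4b1, a member of a sugar transporter family, had 4.11, 2.77 and 3.06 CPM in controls and 0.434, 0.796 and 0.611 CPM in CUG960 mice (log2 fold change -2.43 ± 0.25, adjusted P = 5.3e-04). In none of them did the groups overlap.

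The same mice gave atrial libraries, so each ventricular change was compared with the atrial change of the same gene by the interaction of chamber and genotype. The fit treated all libraries as independent and did not use the mouse, which entered only as the replicate block given below. The interaction was called for 253 of 18327 genes (1.38%), and for 74 (without V333) to 131 (without V334) when 1 mouse was left out. Of 159 genes called in ventricles and chosen by the rule for named genes, 43 passed, which cannot be read as a rate because they were chosen for their ventricular change. In 38 of the 43 the change was larger in ventricles and in 5 larger in atria. Choosing genes by their ventricular call favours that balance, so it describes these genes only. The log2 fold change of Plekha7 was 2.92 in ventricles and 0.51 in atria (adjusted P of the difference 3.2e-05). Abat had log2 fold changes of 2.17 in ventricles and 0.68 in atria (adjusted P of the difference 7.5e-04), and Aass had 2.48 and 1.07 (adjusted P of the difference 0.0028). Myom2 had 1.15 in ventricles and 0.37 in atria (adjusted P of the difference 0.0092). Mtr had -1.04 and -0.31 (adjusted P of the difference 0.016). Without V123 the Mtr difference was -0.653 at an adjusted P of 0.088 and no longer passed.

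Some metabolic genes had the opposite sign or a larger change in atria. Pfkfb1 had -1.06 in ventricles and 1.07 in atria (adjusted P of the difference 0.0018). Ogdhl had 0.64 in ventricles and 2.36 in atria (adjusted P of the difference 0.0096). Without V123 the Ogdhl difference was -1.57 at an adjusted P of 0.051 and just missed the threshold. Coq8a, in contrast, was lower in both chambers, at -2.6 on the log2 scale in ventricles and -1.94 in atria (adjusted P of the difference 0.033). Without V123 the Coq8a difference was -0.653 at an adjusted P of 0.088 and no longer passed. The difference was not called for Ckmt2, with -1.39 and -1.52 (adjusted P of the difference 0.84), Shmt1, with 2.53 and 2.14 (adjusted P of the difference 0.56), or Ccne1, with 2.43 and 2.26 (adjusted P of the difference 0.80). With the mouse as a replicate block, 1.82% of genes were called for the difference and 41 of the 43 remained, the exceptions being Mthfd2 and Fbn2. With the block 12 more of the 159 passed, among them Pdk4 (adjusted P of the difference 0.75 without the block and 0.0070 with it), E2f1, Mgll, Ankrd1, Ccnd2, Ube2c, Pdlim3, Ryr3, Slc38a3, Myh11 and mt-Rnr2.

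**Figure D5:**
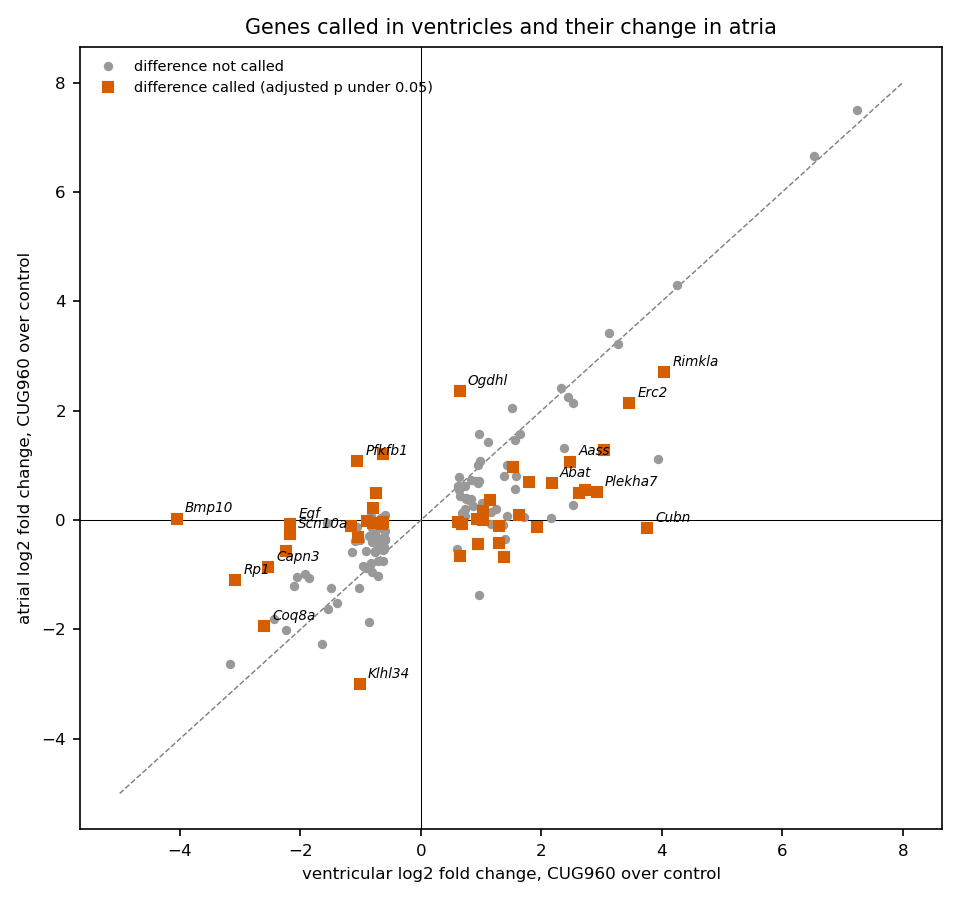
Log2 fold change of CUG960 over control in ventricles (x axis) and atria (y axis) for the genes chosen by the naming rule and called in ventricles, with those whose chamber difference passed an adjusted P of 0.05 as squares and equal change as a dashed line. Plekha7, at 2.92 in ventricles and 0.51 in atria, lies far below the line, Ogdhl and Klhl34 changed more in atria, and Pfkfb1 changed in opposite directions.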

How the data were processed

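Poly(A)-selected RNA of atria and ventricles was sequenced from 3 CUG960 +dox and 3 MHCrtTA +dox mice. The deposited values are expected counts per gene that the authors estimated with RSEM 1.3.1 on the mouse genome (mm10, GRCm38). They were rounded to whole numbers. Whether strand was used in counting is not given in the sources used here, so overlapping antisense genes cannot be told apart.

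The 6 ventricular libraries, of 129140369 to 160676189 counts, were filtered with filterByExpr, scaled by TMM and tested with edgeR 4.0.16 (quasi-likelihood, R 4.3.3) with Benjamini-Hochberg adjustment. A call required a 1.5-fold or larger change with an adjusted P below 0.05. The chamber difference was the interaction over all 12 libraries. The fits were tested on simulated data.

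The 48 gene lists and all members were chosen with earlier results of these data known. Genes named in the text were the 10 largest called changes in each direction at a mean of at least 1 CPM, abundant called genes, and members of lists by their call or counts. Gene positions came from GENCODE M21 and promoters from RefSeq (GRCm38.p6). Of 147 called list members, 109 had a promoter there. Alternatives were DESeq2 1.42.0, other scalings, filters and fold limits, and each mouse left out. The main fit of the chamber difference did not use the mouse. Atria and ventricles were paired by the mouse in the labels only in the alternative with a replicate block. Same-mouse deviations correlated at 0.0302 to 0.135, and those of different mice at -0.141 to 0.0536. Results for a few genes are not reported here.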

Additional observations from a re-analysis of the deposited data

Results flagged for a closer look

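Of the genes named above and called in ventricles, 41 were singled out because the ventricular and atrial changes of the same mice differed in the test of chamber by genotype, at an edgeR adjusted P under 0.05. Each value below is the ventricular minus the atrial log2 fold change, and a positive value means a higher ventricular change.

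Among contraction and muscle genes the difference was 0.78 for Myom2, 1.03 for Myom3, 1.54 for Tnni1, 0.56 for Dstn, 1.98 for Klhl34 and -1.67 for Capn3. Among genes of energy metabolism it was -0.66 for Coq8a, -2.13 for Pfkfb1, 1.09 for Acss3, 0.86 for Pdk3, -1.72 for Ogdhl, -0.75 for Mlxipl, -0.89 for Ces1d and -0.59 for Aox1. In amino acid and one-carbon metabolism and transport it was 1.33 for Rimkla, 1.49 for Abat, 1.41 for Aass, 1.38 for Mthfd2, 0.91 for Slc38a1, -0.73 for Mtr, -1.07 for Fah, -0.59 for Prodh and -1.02 for Slc6a17.

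Among membrane and signalling genes it was 2.41 for Plekha7, 2.12 for Kcna4, -1.92 for Scn10a, -1.67 for Kcnv2, 2.17 for Adcy1, 1.72 for Nppa, 0.75 for Npr3, 2.05 for Sfrp2, -2.09 for Egf and -4.1 for Bmp10. Without V123 it was 1.73 for Nppa (adjusted P = 0.154) and no longer passed, and -4.17 for Bmp10 (adjusted P = 0.019). With all mice, it was 3.91 for Cubn, 1.32 for Erc2, 1.77 for Syn2, 1.39 for Mcm2, 2.06 for Fbn2, 0.66 for Gpx3, -1.85 for Tagln and -1.99 for Rp1. Nppa was not the only loss when V123 was left out. The difference then also failed to pass for Dstn, Tnni1, Klhl34, Coq8a, Ogdhl, Mlxipl, Ces1d, Aox1 and Mthfd2. Mtr, Prodh, Slc6a17, Npr3, Gpx3 and Tagln did not pass either. Adjusted P in these genes lay between 0.0514 (Ogdhl, difference -1.57) and 0.179 (Tnni1, difference 1.35).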

How the results depend on the processing

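Across the scalings, filters, tools and omitted mice, 0 of the 159 called genes chosen by the naming rule reversed wherever they had a value. Of these genes, 91 were called in each alternative that gave them a value. Not all genes had one throughout. The 10-count filter kept 152 of the 159, and the fit that dropped mitochondrially encoded genes kept 154. Under DESeq2 952 genes were called, with upper-quartile scaling 811, without the filter on low counts 1024, with at least 10 counts 775, and with all 12 libraries in the fit 968. Only the fold limit moved the totals by over 1.5 times. Where a log2 change of 1.5 in either direction was required, 199 genes were called (134 higher, 65 lower), 38 of them in a list and 16 in the contraction and metabolism lists (contraction 4 higher and 3 lower, metabolism 7 higher and 2 lower). With no fold limit 1680 were called (969 higher, 711 lower), 278 in a list and 129 in those lists (contraction 25 higher and 18 lower, metabolism 39 higher and 47 lower).

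With 1 mouse left out, 6 to 11 contraction genes and 16 to 23 metabolism genes were called lower, and 74 to 131 genes were called for the chamber difference, beside 253 with all mice. These fits hold fewer samples by construction. With the mouse as a replicate block the chamber difference was called for 1.82% of genes and for 41 of the 43 named genes, and 12 more named genes passed. No paired analysis was possible for the ventricular comparison because the genotypes share no mouse. DESeq2 was fitted to more list members, because low genes were not filtered out. Over its members the median log2 fold change had the opposite sign for splicing regulators (0.017) and for BMP, TGF-β and growth factor signals (-0.0026), and moved from -0.55 to -0.096 for skeletal muscle markers, from -0.15 to -0.016 for sodium channels and from 0.022 to 0.199 for conduction system markers. Over the members that edgeR tested, the DESeq2 medians of these lists were -0.042, 0.0059, -0.553, -0.154 and 0.0215. Genes under 1 CPM, such as Tnni1, Slc8a3 and Clcn1, rest on fewer counts than the others and are less precise.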
